A study of Mus musculus with 8 samples.

Results

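The neurexin genes Nrxn2 and Nrxn3 were taken from the deposited table of hippocampal gene expression by their symbols, with the row of highest mean kept where a symbol was repeated. The table holds 56575 rows, of which 24338 carry a symbol. Nrxn3 had 1 row, and Nrxn2 had 2, so 3 rows carried one of the 2 symbols. The libraries were made from hippocampi of C57BL/6 mice aged 8 weeks, 4 labelled Slm2KO and 4 labelled wild type (WT), and the study compared overall expression and alternative splicing between these genotypes. The labels do not say how the Slm2KO allele was made, the sex of the mice or whether a library came from a single animal, so the p-values speak of the spread among these libraries, which may be partly technical.

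Neurexins are single-pass membrane proteins of the presynaptic terminal that bind partners across the synaptic cleft, among them neuroligins, LRRTM proteins and, through secreted bridges, glutamate receptor family members. Each gene uses separate promoters for a long alpha and a short beta form, and alternatively spliced segments in the extracellular part select which partners bind. Segment 4, in the last laminin G domain that both forms share, is the one that SLM2 (the STAR family splicing regulator that Khdrbs3 encodes) is known to control: SLM2 promotes skipping of its exon, and the insert favours cerebellin binding while its absence favours LRRTM binding.

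The segment 4 exon of Nrxn3 is shown because it is the part of the gene on which SLM2, the protein named in the Slm2KO label, is known to act, and because the table, with 1 value for a whole gene, does not resolve it. In the GENCODE vM21 transcripts (GRCm38, the assembly of mm10) it is a 90-base coding exon on the plus strand (chr12:90199147-90199236), present in 4 coding transcripts and skipped by 1 that spans it. It is printed in lower case throughout, since no base in it is singled out.
Nrxn3: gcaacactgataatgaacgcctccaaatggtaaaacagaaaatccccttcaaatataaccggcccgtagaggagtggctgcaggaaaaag
Because the totals below count reads of the gene with and without such an exon alike, they measure how much neurexin RNA was present, not which form.

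The libraries held 104020058 to 125985224 reads, recovered from the deposited normalised read counts. All 10 hippocampal neuron markers examined, among them Prox1 of granule cells and Wfs1 of CA1 neurons, were measured in each group, and their summed value was 113200 to 150882 in Slm2KO and 117010 to 138564 in WT libraries. Khdrbs3 itself did not go down under the Slm2KO label. Its value was 29676, 33366, 30022 and 25932 in Slm2KO 1 to 4, against 20662, 23542, 19457 and 24544 in WT 1 to 4. Its row covers the whole gene and cannot show the loss of a part, so the direction of each difference below refers to the labels. Across all 25667 features averaging 10 or more, limma with an adjusted threshold of 0.05 called 1 higher, Khdrbs2, and 0 lower, which is 0.0039% of those tested (904 at an unadjusted p under 0.05; DESeq2 called 9 and edgeR's quasi-likelihood test 1).

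Nrxn2 (GSMG0019341; chr19:6418737-6544169, plus strand), which encodes neurexin II, did not pass the test between genotypes. Its normalised read count was 5059, 4737, 4714 and 3912 in Slm2KO 1 to 4, against 4877, 5183, 5129 and 5034 in WT 1 to 4. Slm2KO 4 was the lowest of the 8 libraries, Slm2KO 2 and 3 lay below the WT range, and Slm2KO 1 lay inside it, so the groups overlapped. Nrxn2 averaged 4606 ± 489 in Slm2KO and 5056 ± 134 in WT libraries (SD, n = 4 each), a log2 fold change of -0.14 (SE 0.076; 95% interval 0.806- to 1.02-fold; limma adjusted p = 1.00; two-sided exact permutation p = 0.0857). The smallest p that 4 libraries against 4 can give in that permutation test is 0.0286. Without Slm2KO 4 the log2 difference was -0.064.

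Nrxn3 (GSMG0008369; chr12:88722874-90334931, plus strand), which encodes neurexin III, had nearly the same mean under both labels. Its normalised read count was 14713, 15734, 14672 and 12995 in Slm2KO 1 to 4, against 14320, 17005, 12870 and 14906 in WT 1 to 4. The highest and the lowest library were both WT, and all 4 Slm2KO libraries lay between them. Nrxn3 averaged 14528 ± 1134 in Slm2KO and 14775 ± 1715 in WT libraries (SD, n = 4 each), a log2 fold change of -0.02 (SE 0.087; 95% interval 0.861- to 1.13-fold; limma adjusted p = 1.00; two-sided exact permutation p = 0.857). Of the 2 neurexin genes tested 0 were called, beside the 0.0039% of all features. Among all tested features, 31.7% had a larger absolute change than Nrxn2 and 86.2% a larger one than Nrxn3, while 7.51% had a smaller unadjusted p than Nrxn2 and 81.1% a smaller one than Nrxn3. The sign of the Nrxn3 difference turned without Slm2KO 4 (0.032), without WT 2 (0.049) and without both of these (0.10), which are the libraries with the most and the least of the choroid plexus gene Ttr.

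**Figure D1:**
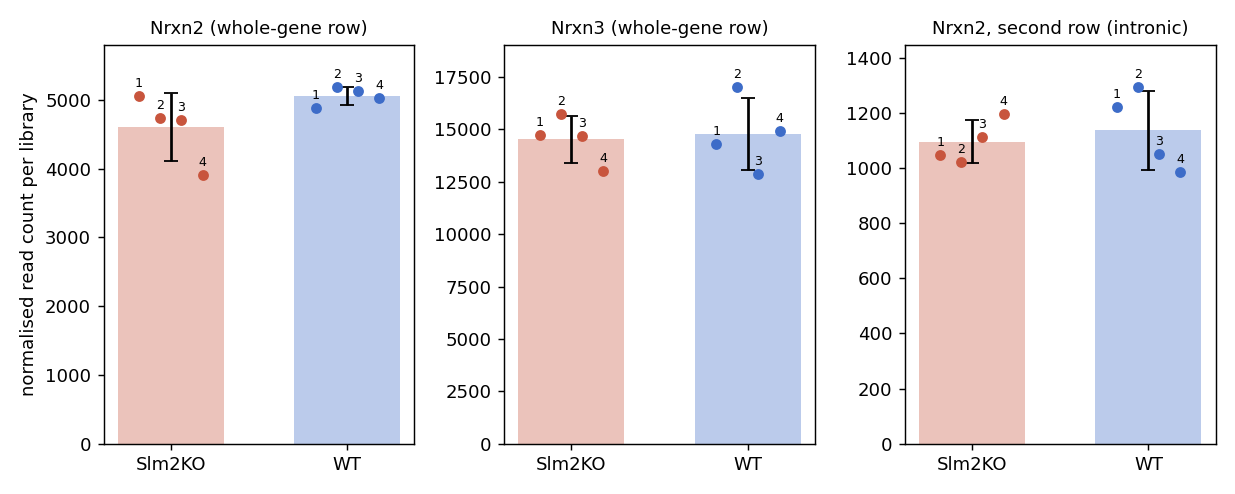
Normalised read count of Nrxn2, Nrxn3 and the second, intronic row of Nrxn2 in each library (points, numbered by replicate), with bars for the group mean and error bars for the SD of 4 libraries. For Nrxn2 the lowest point is Slm2KO 4 at 3912, and for Nrxn3 the 4 Slm2KO points fall within the WT range of 12870 to 17005.

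The spread between libraries exceeded counting error for both genes, by a different amount in each group. Nrxn2 rested on 3631 to 5734 reads per library and Nrxn3 on 12062 to 18814. The coefficient of variation of Nrxn2 was 10.6% in Slm2KO and 2.65% in WT libraries, where counting error alone gives 1.48% and 1.38%. That of Nrxn3 was 7.81% in Slm2KO and 11.6% in WT libraries, where counting error alone gives 0.837% and 0.807%. The labels give each sample a number. These numbers were divided here at 300 into a lower and a higher series, with 2 libraries per genotype in each. Within the lower series the log2 difference was -0.038 for Nrxn2 and -0.037 for Nrxn3, and within the higher series it was -0.24 for Nrxn2 and -0.0045 for Nrxn3.

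Per kilobase of annotated exon, Nrxn3 was the more abundant of the pair. Merged GENCODE exons come to 13.8 kb for Nrxn2 and 12.6 kb for Nrxn3, so their normalised reads per kilobase can be set side by side, although the length the authors counted over is not given. Nrxn3 had 1153 ± 89.99 normalised reads per kilobase in Slm2KO and 1172 ± 136 in WT libraries (SD, n = 4 each). Nrxn2 had 333 ± 35.4 in Slm2KO and 366 ± 9.70 in WT libraries. This level was ranked among the 16539 genes with a symbol, an annotated length and a mean value of 10 or more. Nrxn3 ranked 4070 (percentile 75.4) and Nrxn2 ranked 8367 (percentile 49.4). Nrxn2 was close to the median of these genes, 361 normalised reads per kilobase.

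The balance between the 2 genes did not differ detectably between genotypes. The ratio of the Nrxn3 to the Nrxn2 normalised read count, which does not depend on a library's scaling, was 2.91, 3.32, 3.11 and 3.32 in Slm2KO 1 to 4, against 2.94, 3.28, 2.51 and 2.96 in WT 1 to 4. WT 3 had the lowest ratio and the remaining libraries of both groups overlapped. The ratio averaged 3.17 ± 0.198 in Slm2KO and 2.92 ± 0.317 in WT libraries (SD, n = 4 each; log2 difference 0.12, SE 0.092; two-sided exact permutation p = 0.257). Without WT 3 the log2 difference was 0.049 (exact permutation p = 0.514).

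A second row with the symbol Nrxn2 (GSMG0019342; chr19:6527804-6530957, plus strand) lay wholly in an intron. It shares no base with an annotated Nrxn2 exon: it sits in the intron from 6519328 to 6531267, ending 310 bases before the next exon. Its normalised read count was 1048, 1023, 1114 and 1197 in Slm2KO 1 to 4, against 1222, 1293, 1051 and 985 in WT 1 to 4. The groups overlapped, with the 2 highest and the lowest value all in WT libraries. The mean was 1095 ± 77.9 in Slm2KO and 1138 ± 144 in WT libraries (SD, n = 4 each; log2 fold change -0.049, SE 0.098; limma adjusted p = 1.00; exact permutation p = 0.657). Over its span of 3.15 kb this is 354 normalised reads per kilobase, beside 350 per kilobase of annotated exon for the main row of Nrxn2. Its sign differed between the sample number series, with a log2 difference of -0.28 in the lower and 0.18 in the higher series.

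As a share of the main row, the intronic row was 20.7%, 21.6%, 23.6% and 30.6% in Slm2KO 1 to 4, against 25.1%, 25.0%, 20.5% and 19.6% in WT 1 to 4. The highest share was that of Slm2KO 4, the library with the lowest Nrxn2 total. The share averaged 24.1% ± 4.48 in Slm2KO and 22.5% ± 2.90 in WT libraries (SD, n = 4 each; log2 difference 0.092, SE 0.16; two-sided exact permutation p = 0.600). Without Slm2KO 4 the direction turned, with a mean of 22.0% in Slm2KO and 22.5% in WT libraries. Library preparation with the TruSeq RNA kit keeps no strand. The antisense gene Gm14964 overlaps the last bases of this row, from 6530711 to 6530957. Within that stretch the reads of the row and of Gm14964 cannot be told apart.

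2 named genes on the opposite strand overlapped Nrxn2 exons. Gm14964 (chr19:6530711-6532013), of whose 1303 bases 746 lie in Nrxn2 coding exons, had a normalised read count of 309, 238, 192 and 255 in Slm2KO 1 to 4, against 393, 245, 295 and 257 in WT 1 to 4 (log2 fold change -0.25, SE 0.18; limma adjusted p = 1.00). Slc22a12 (chr19:6535854-6543070), a urate transporter gene best known from kidney, shares 730 bases with Nrxn2 exons near its end and averaged 82.0 ± 20.1 in Slm2KO and 79.8 ± 10.5 in WT libraries (SD, n = 4 each; log2 fold change 0.010). These overlaps were counted over the whole span of Gm14964 and Slc22a12, introns included. Without strand, reads inside the shared stretches cannot be assigned to 1 gene by these values. How many such reads there were was not tested. Between Nrxn2 and Nrxn3 themselves, 0 stretches of 30 bases were shared among the annotated transcripts. Of the 30-base stretches of Nrxn2 6.00% also occur in transcripts of other genes on either strand, and of those of Nrxn3 3.34%.

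The Nrxn3 locus, which spans 1612058 bases, held 36 further features without a symbol. 34 of them lie on the same strand and share no base with an annotated exon, 1 on the same strand and 1 antisense overlap annotated exons. Their mean values were 0.743 to 92.9, against 14652 for Nrxn3 itself, and 13 passed the minimum mean of 10. Of these 13, 8 had a positive and 5 a negative log2 fold change, 0 had an unadjusted p under 0.05 and 0 were called by limma or edgeR. Their log2 fold changes ran from -0.46 (SE 0.40) to 1.24 (SE 0.86). DESeq2 gave an adjusted p for 1 of them, GSMG0008403, which it did not call. The highest mean belonged to GSMG0008403 (chr12:90310318-90311645), 111 kb past the segment 4 exon, with 62.9, 71.5, 108 and 150 in Slm2KO 1 to 4, against 102, 123, 67.8 and 58.4 in WT 1 to 4. The groups overlapped. Slm2KO 4 was highest and WT 4 lowest of the 8 libraries (log2 fold change 0.13, SE 0.32). The next by mean were GSMG0008377 (log2 fold change 0.16, SE 0.35) and GSMG0008380 (-0.019, SE 0.30).

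Summed over the 34 intronic features, which cover 107591 bases, the normalised read count was 324, 375, 435 and 575 in Slm2KO 1 to 4, against 406, 433, 360 and 309 in WT 1 to 4. That is 2.20%, 2.38%, 2.97% and 4.43% of the Nrxn3 value in Slm2KO 1 to 4, against 2.83%, 2.55%, 2.80% and 2.07% in WT 1 to 4. Slm2KO 4 was again highest, and the other libraries overlapped. The sum averaged 427 ± 109 in Slm2KO and 377 ± 54.2 in WT libraries (SD, n = 4 each; log2 difference 0.16, SE 0.21; two-sided exact permutation p = 0.486). Without Slm2KO 4 the Slm2KO mean was 378, against 377 in WT libraries, and the log2 difference was 0.0038.

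**Figure D2:**
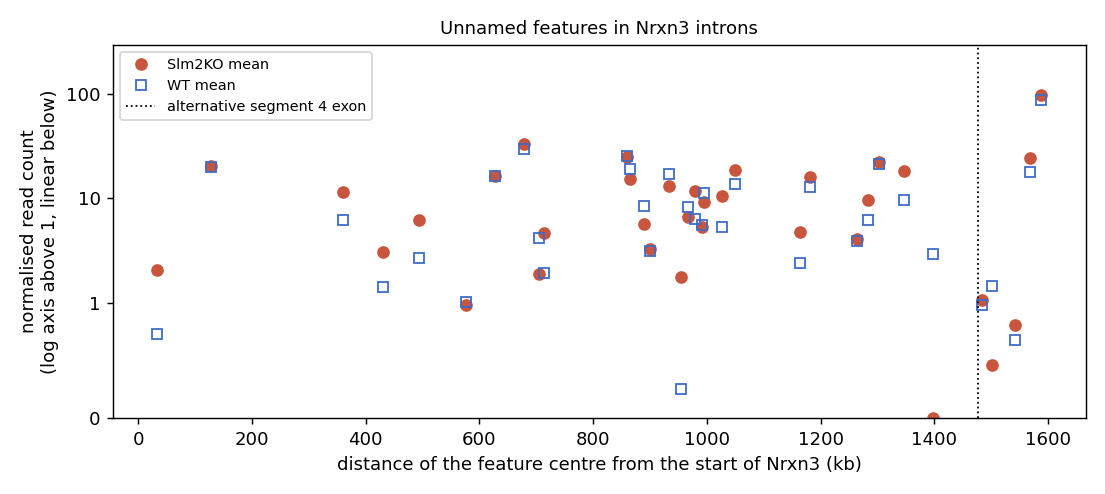
Group mean of the normalised read count (log axis above 1, linear below) of the 34 unnamed intronic features of Nrxn3, by distance of the feature's centre from the start of the gene; filled circles are Slm2KO and open squares WT, and the dotted line marks the segment 4 exon. For the 13 features with a mean of at least 10 the log2 fold changes ran from -0.46 to 1.24, none called. The feature nearest the end of the gene is the highest, with a mean of 92.9 over the 8 libraries.

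Across libraries Nrxn3 was lower where the choroid plexus gene Ttr was higher, and higher where neuronal markers were higher. Ttr, transthyretin of the choroid plexus, had a normalised read count of 844419, 376053, 830006 and 2262369 in Slm2KO 1 to 4, against 1519675, 219052, 1791307 and 794256 in WT 1 to 4. The library with the least Ttr, WT 2, had the most Nrxn3, and the 2 with the most Ttr, Slm2KO 4 and WT 3, had the least. Across the 8 libraries log2 Nrxn3 and log2 Ttr had a Pearson r of -0.96 (exact permutation p = 0.000198, adjusted over 5 relations 0.000992) and a Spearman rho of -0.95 (exact permutation p = 0.00114, adjusted 0.00285). With WT 2 and Slm2KO 4 left out, which lay farthest from the median Ttr, r was -0.90 (exact permutation p = 0.0181), and on deviations from the group means it was -0.96. The number series hold 4 libraries each, too few for a value within them.

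The same libraries were ordered by neuronal markers. The mean log2 value was taken over 13 neuronal markers, among them Snap25, Map2 and Rbfox3, and Camk2a and Slc17a7 of excitatory neurons. With it, Nrxn3 had a Pearson r of 0.93 (exact permutation p = 0.00176, adjusted 0.0044) and a Spearman rho of 0.95 (exact permutation p = 0.00114, adjusted 0.00285). Without Slm2KO 4 and WT 2, r was 0.93. The summed value of the 13 neuronal markers was 814510 to 1055543 in Slm2KO and 905830 to 1068467 in WT libraries. That of 12 choroid plexus markers was 396358 to 2373998 in Slm2KO and 233263 to 1875826 in WT libraries, and 0 markers of either list were at 0 throughout. Ttr made up most of this sum, with 2262369 of the 2373998 in Slm2KO 4 and 219052 of the 233263 in WT 2. The mean log2 value of the neuronal markers was highest in WT 2 (15.91), with the least Ttr, and lowest in Slm2KO 4 (15.52), with the most. The relations of Nrxn3 with Ttr and with these markers were thus not shown to be separate. How many other features followed Ttr as closely was not counted. In pieces of tissue, fewer neurons and less RNA per neuron cannot be told apart. All values of a library share its scaling, and Ttr took 0.192% to 2.02% of the normalised reads. With log2 Ttr as a covariate, the log2 difference between genotypes was -0.011 for Nrxn3 and -0.14 for Nrxn2.

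Nrxn2 showed no such relation that held. Its Pearson r with Ttr was -0.47 (exact permutation p = 0.254, adjusted 0.275) and its Spearman rho -0.33 (p = 0.428 by exact permutation, adjusted 0.501), and r was 0.57 without WT 2 and Slm2KO 4. With the neuronal markers r was 0.68 (exact permutation p = 0.0756, adjusted 0.126) and rho 0.33 (p = 0.428 by exact permutation, adjusted 0.501), and r was -0.53 without Slm2KO 4 and WT 2. The sign of these values therefore rested on Slm2KO 4 and WT 2. On deviations from the group means, with both libraries kept, r was -0.55 with Ttr (exact permutation p = 0.156). With the neuronal markers it was 0.72 (exact permutation p = 0.0426, not adjusted). Nrxn2 with Nrxn3 gave r of 0.46 (exact permutation p = 0.275, adjusted 0.275) and rho of 0.29 (exact permutation p = 0.501, adjusted 0.501), and r of -0.069 without Slm2KO 4 and Slm2KO 3. Whether the relations of the 2 genes differ from each other was not tested.

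**Figure D3:**
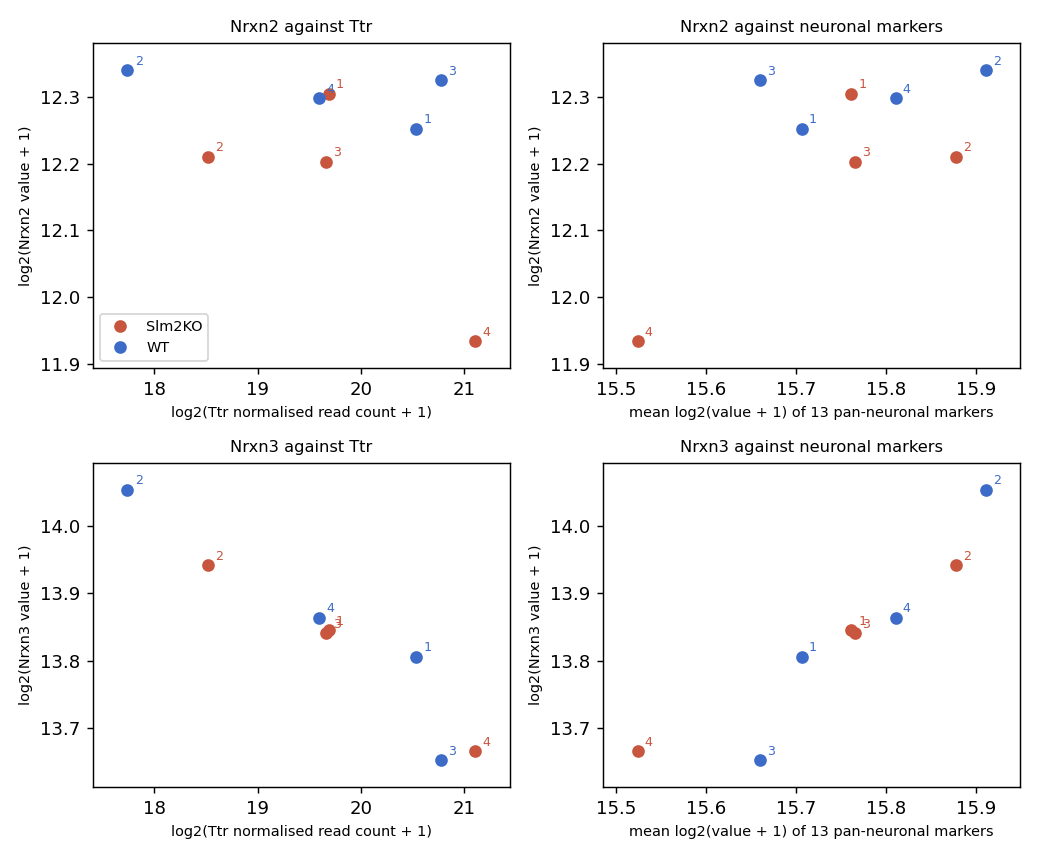
Log2 values of Nrxn2 (top) and Nrxn3 (bottom) in each library against log2 Ttr (left) and the mean log2 value of 13 neuronal markers (right, labelled pan-neuronal), with Slm2KO and WT libraries in different colours and numbered by replicate. Nrxn3 falls with Ttr (r = -0.96) and climbs with the neuronal markers (r = 0.93), while for Nrxn2 the point of Slm2KO 4 stands below the other 7.

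Each neurexin was also set against the other genes over the 8 libraries. Among 14994 other features with a symbol and a mean of at least 100, the highest Pearson r with Nrxn2 belonged to Ss18l1, a chromatin remodelling subunit of neurons (0.991), 2610002J02Rik (0.987), Dnal4, a dynein light chain (0.986), Fam131b (0.984) and Abhd16a, a lipid hydrolase (0.984). With Nrxn3 it belonged to Tmem191c (0.991), Evc2, a protein of the ciliary base (0.989), Glg1, a Golgi glycoprotein (0.970), Tbxas1, thromboxane synthase (0.965) and 6720483E21Rik (0.963). Nrxn3 ranked 5408 for Nrxn2, and Nrxn2 ranked 4950 for Nrxn3. These are descriptions of 8 points each.

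The genes around the neurexins did not differ detectably between genotypes. Over 7 lists of partners, relatives, sugar-chain enzymes, proteases and other presynaptic adhesion genes, 69 genes were tested and 0 passed, beside the 0.0039% of all features; 2 (2.90%) had an unadjusted p under 0.05, beside 3.52% of all features. 44 of the 69 (63.8%) were lower in Slm2KO libraries, beside 53.9% of all features, with a median log2 fold change of -0.024, beside -0.011 over all features. That majority turned without Slm2KO 4, where 23 were lower and 46 higher. It also turned without the lowest and the highest Ttr library together, WT 2 and again Slm2KO 4, where 21 were lower and 48 higher. For 63 of the 69 (91.3%) the 95% interval lay within 1.5-fold in either direction, as it did for Nrxn2 and Nrxn3 and for 65.7% of all features.

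Of 13 postsynaptic ligands tested (Nlgn3 was not analysed here), which include neuroligins, LRRTM proteins, calsyntenins, latrophilins and dystroglycan, 4 were higher and 9 lower, none past the threshold, with a median log2 fold change of -0.020. Lrrtm2, which binds neurexins lacking the segment 4 insert, averaged 14548 ± 876 in Slm2KO and 15242 ± 680 in WT libraries (SD, n = 4 each; log2 fold change -0.068, SE 0.058). Clstn2, a calsyntenin, averaged 17099 ± 1764 in Slm2KO and 18821 ± 1409 in WT libraries (log2 fold change -0.14, SE 0.079). Clstn1 and Clstn3, the most abundant of the list, had log2 fold changes of -0.0072 and -0.066.

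Of 12 secreted and cis-acting partners, 5 were higher and 7 lower, none past the threshold. Cbln2, a cerebellin that bridges neurexins carrying the segment 4 insert to postsynaptic receptors, averaged 879 ± 149 in Slm2KO and 749 ± 51.3 in WT libraries (SD, n = 4 each; log2 fold change 0.22, SE 0.13). Cbln3, a cerebellin best known from cerebellar granule cells, averaged 76.7 ± 17.4 in Slm2KO and 101 ± 19.4 in WT libraries (log2 fold change -0.40, SE 0.22). C1ql3, a secreted C1q-like synaptic organizer, and Car11, a carbonic anhydrase relative known to bind neurexins, were the most abundant, with log2 fold changes of -0.026 and -0.045.

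Of 11 cytoplasmic partners tested (Epb41l1 was not analysed here), 4 were higher and 7 lower, none past the threshold. Lin7c, a PDZ scaffold of the complex that holds the neurexin tail, averaged 27616 ± 1630 in Slm2KO and 26486 ± 1270 in WT libraries (SD, n = 4 each; log2 fold change 0.060, SE 0.059). Caskin2, a CASK-interacting scaffold relative, had a log2 fold change of -0.10.

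Of the 7 contactin-associated relatives of the neurexins, 3 were higher and 4 lower, none past the threshold. Cntnap5b averaged 943 ± 118 in Slm2KO and 1142 ± 117 in WT libraries (SD, n = 4 each; log2 fold change -0.28, SE 0.10; limma adjusted p = 1.00; exact permutation p = 0.0571). Cntnap3 had a log2 fold change of 0.15. Cntnap1, of the axonal junctions beside the node of Ranvier, and Cntnap2, which clusters potassium channels next to those junctions, were the most abundant of these genes, at -0.074 and 0.019.

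Neurexins carry heparan sulfate chains and are cut by membrane proteases. Of 13 genes for synthesis and editing of these chains, 6 were higher and 7 lower, none past the threshold, with log2 fold changes of -0.13 for the 6-O-sulfotransferase Hs6st1, -0.11 for the extracellular sulfatase Sulf2 and -0.058 for the glycosyltransferase Extl3. Of 6 protease genes, 1 was higher and 5 lower, none past the threshold. Psen2, a catalytic subunit of gamma-secretase, averaged 720 ± 56.0 in Slm2KO and 815 ± 21.5 in WT libraries (SD, n = 4 each; log2 fold change -0.18, SE 0.077; limma adjusted p = 1.00; exact permutation p = 0.0286). Its groups did not overlap, which held for 1 of the 69 genes of these lists and for 2.5% of all features. Ncstn and Psenen, other subunits of the same protease, had log2 fold changes of -0.0089 and 0.047.

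Of 7 other presynaptic adhesion genes, 2 were higher and 5 lower, none past the threshold. The receptor phosphatases Ptprf and Ptprs had log2 fold changes of -0.13 (SE 0.075) and -0.049 (SE 0.070), and the teneurins Tenm2 and Tenm4 of -0.024 (SE 0.13) and -0.058 (SE 0.077).

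The STAR genes, whose proteins bind neurexin transcripts, were the exception among the lists. Khdrbs2, which encodes SLM1, rose in the Slm2KO libraries (log2 fold change 1.18, SE 0.099; limma adjusted p = 0.00761), 1 of 3 members called beside 0.0039% of all features. All 3 members, Khdrbs1 and Khdrbs3 included, had groups that did not overlap, beside 2.5% of all features. Khdrbs1 and Khdrbs3, with log2 fold changes of 0.37 and 0.43, did not pass (limma adjusted p = 0.429 and 1.00). DESeq2 called both as higher (adjusted p = 2.1e-06 for Khdrbs1 and 0.0191 for Khdrbs3), and limma called Khdrbs1 without Slm2KO 4 (adjusted p = 0.0289). The call of Khdrbs2 was lost without Slm2KO 1, Slm2KO 3, WT 1 or WT 4 (limma adjusted p = 0.0528, 0.0756, 0.0587 and 0.0769), with no trend in the prior (0.172) and with no filter on low values (0.0527).

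**Figure D4:**
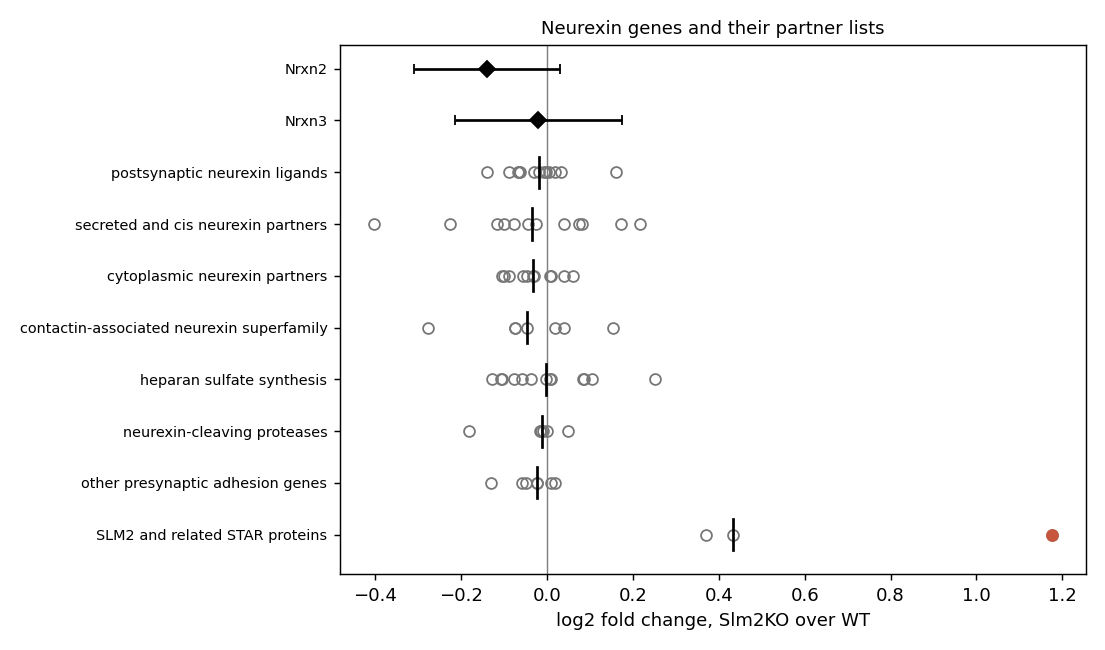
Log2 fold change of Slm2KO over WT for Nrxn2 and Nrxn3 (diamonds with 95% intervals from limma) and for each tested gene of the 8 lists (circles; a filled circle passed the adjusted threshold of 0.05), with a vertical bar at each list's median. The medians of the 7 lists other than the STAR genes lie between -0.047 and -0.0025, and the filled circle is Khdrbs2 at 1.18.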

How the data were processed

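RNA-seq of 8 hippocampal libraries was analysed. The deposited table gives 1 signal value per feature and library: the authors scaled read counts with DESeq, per the submitters' processing notes, so a value is a normalised read count and is not divided by length. FastQC, Picard and SAMtools appear in the same notes. The file header says mm10, which was used, although the notes list hg19. Aligner and counter: not given in the sources used here. Within a library the values were whole multiples of 1 step (100% within 0.001), from which reads were recovered.

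Genotypes were compared with limma 3.58.1 in R 4.3.3 (log2 of value plus 1, trended prior, features with mean 10 or above, Benjamini-Hochberg over all tested, threshold 0.05), tested on simulated data. Single values had two-sided exact permutation tests over 70 assignments. Alternatives were edgeR 4.0.16 and DESeq2 1.42.0 on recovered reads, other scalings, pseudocounts, filters and covariates, array weights, a replicate block and leaving out libraries. Exons came from GENCODE vM21. The genes, lists, tests and alternatives were chosen with earlier results of these data known. From each list the text names genes past the threshold, the 2 smallest p-values and the 2 highest means; from each locus the 3 highest means; for each neurexin the 5 highest correlations. A few genes and 1 exon sequence are not reported here; the genes stay in the counts of their lists. Splicing was not analysed here.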

Additional observations from a re-analysis of the deposited data

Results flagged for a closer look

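A library far from the other 3 of its group was found in 3 of 72 groups tested (36 features in 2 genotypes); chance alone marks about 1 group in 20. Ptprs, a receptor phosphatase of the presynaptic membrane, had a normalised read count of 19509 in WT 2, where the other WT libraries had 17525 to 17773. Slc22a12, antisense to the end of Nrxn2, had 64.1 in WT 4, where the other WT libraries had 84.1 to 86.1. GSMG0008380, an unnamed feature in an intron of Nrxn3, had 16.2 in WT 3, where the other WT libraries had 27.8 to 29.0. Nrxn2, Nrxn3 and the intronic Nrxn2 row had no such library.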

How the results depend on the processing

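Nrxn2 stayed lower in Slm2KO libraries and uncalled in all 22 alternatives, with log2 differences of -0.19 to -0.052. Nrxn3 stayed uncalled in all 22 but turned sign, to 0.10 without the libraries of lowest and highest Ttr, and ranged from -0.084 to 0.049 with a library left out. The intronic Nrxn2 row ranged from -0.12 to 0.016 with a library left out. In alternatives chosen after seeing the data, its share of the main row ranged from -0.028 to 0.16 and the summed intronic features of Nrxn3 from 0.0038 to 0.28 with a library left out. The number of features called, 1, became 9 with DESeq2, 12 with no filter on low values, 2 with log2 Ttr as covariate, 2 with a pseudocount of 10, 0 without the trend, and 0 to 2 with a library left out. In each of the 22 alternatives 0 partner genes were called, and 0 of those features of the neurexin loci that had an adjusted p (with DESeq2, 1 of 13 at Nrxn3 and 3 of 3 at Nrxn2). The causes were not tested.

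Same-numbered libraries of the 2 groups had correlations of their deviations of 0.12, 0.32, -0.065 and -0.12. Slm2KO 1 and 2 correlated best with the WT library of their own number, and Slm2KO 3 and 4 did not. So few correlations cannot decide whether the numbers pair the libraries. With a replicate block 1 feature was called, the differences were -0.14 for Nrxn2 and -0.021 for Nrxn3 (limma adjusted p = 0.998 each), and the ratio gave 0.12 (exact sign-flip p = 0.25).

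Of 33 named features 15 turned sign somewhere, none of them called by limma. With array weights the log2 difference was 0.048 for Clstn1, 0.023 for C1ql3, 0.0064 for Car11, 0.012 for Ncstn, 0.021 for Tenm2 and 0.00057 for GSMG0008380. Clstn1 also gave 0.0023 with log2 Ttr as covariate and 0.0062 with quantile normalisation. Without the libraries of lowest and highest Ttr it was 0.15 for Clstn1, 0.078 for Clstn3, 0.020 for C1ql3, 0.094 for Car11, 0.068 for Cntnap1, 0.014 for Extl3, 0.0044 for Ncstn, 0.12 for Tenm2, 0.051 for Ptprs, -0.049 for Slc22a12 and 0.067 for GSMG0008380. With a library left out it ranged from -0.090 to 0.21 for Slc22a12, -0.21 to 0.16 for GSMG0008380, -0.041 to 0.062 for Cntnap2, -0.13 to 0.075 for Tenm2, -0.066 to 0.10 for Clstn1, -0.12 to 0.029 for Clstn3, -0.068 to 0.041 for C1ql3, -0.11 to 0.060 for Car11, -0.14 to 0.0090 for Cntnap1, -0.088 to 0.0050 for Extl3, -0.024 to 0.013 for Ncstn, -0.084 to 0.014 for Ptprs, -0.10 to 0.32 for GSMG0008403 and -0.12 to 0.33 for GSMG0008377.

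Across libraries, leaving out the 2 farthest from the median gave r of -0.069 for Nrxn2 with Nrxn3, 0.57 for Ttr with Nrxn2 and -0.53 for the neuronal mean with Nrxn2. On deviations from group means the last was 0.72 (exact permutation p = 0.0426). At 3631 to 18814 reads per library, counting error was below the spread between libraries for both genes, so the number of libraries limits the precision; the unnamed intronic features rest on few reads.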

Other observations

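Markers of the other cells of the hippocampus did not differ detectably between genotypes, with 0 genes called by limma in each list. Of 6 interneuron markers, which include Gad1 and Pvalb, 4 were higher and 2 lower, and their summed normalised read count was 69304 to 81793 in Slm2KO and 71924 to 77262 in WT libraries. Of the 5 astrocyte markers 1 was higher and 4 lower. 1 of them, Aqp4, had an unadjusted limma p under 0.05, beside 3.52% of all features. They summed to 113068 to 123271 in Slm2KO and 110356 to 125735 in WT libraries. The 5 oligodendrocyte markers, which include Mbp of myelin, were 1 higher and 4 lower. They summed to 659087 to 821786 in Slm2KO and 641758 to 924901 in WT libraries. The 5 microglia markers, also 1 higher and 4 lower, summed to 27538 to 33467 in Slm2KO and 29732 to 33369 in WT libraries. All 4 endothelial markers, which include Cldn5 of the blood-brain barrier, had negative log2 fold changes, -0.30 to -0.17, and their sum was 5356 to 8677 in Slm2KO and 6819 to 10011 in WT libraries, which overlap. Of the 10 hippocampal neuron markers 4 were higher and 6 lower, and 1, Prox1, had an unadjusted limma p under 0.05. Of the 13 neuronal markers 1 was higher and 12 lower, where 53.9% of all features were lower. Their median log2 fold change was -0.045, beside -0.011 over all features. The mean log2 value of these markers was 15.76, 15.88, 15.77 and 15.52 in Slm2KO 1 to 4. In WT 1 to 4 it was 15.71, 15.91, 15.66 and 15.81. Slm2KO 4 was lowest, and the other libraries of both groups overlapped.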
